A study of Mus musculus with 4 samples.

Results

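The genes described here make and store lipid in skin: 47 listed genes of sebum lipid, fatty acid and sterol synthesis. They were chosen by name, with earlier results of these data known. Of the 47, 43 could be measured, among the 18193 genes tested on the arrays. A gene was taken where the platform annotation gave at least 1 probe set with that symbol alone, and among these the brightest on average was used. Awat1, Awat2, Soat1 and Acsl1 had no such probe set and were not analysed here. By role, the measured genes comprised 8 of 10 listed for sebum lipids and sebocyte regulation, 6 of 7 for neutral lipid storage and ester hydrolysis, 15 of 16 for general fatty acid synthesis and activation, and all 14 for sterols.

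RNA came from epithelial tumour cells of chemically induced mouse squamous cell carcinomas (SCC), a malignant skin tumour, sorted for Epcam on the surface and for lack of CD45 (leukocytes), CD31 (endothelium) and CD140a (fibroblasts). The groups were Sox2-GFP-positive cells (n = 2 arrays) and Sox2-GFP-negative cells (n = 2 arrays), drawn from 2 tumours of 2 mice according to the series text. GFP here reports Sox2, a transcription factor; for strain, age and reporter construction the sources used here give nothing. Each group thus rests on 2 arrays, which limits the precision of every value. Epcam read 10.75 and 11.79 in positive and 11.24 and 11.80 in negative cells, and the basal keratin gene Krt14 13.00 to 13.07 on all arrays. Of 8 basal and epithelial markers, 4 had both positive arrays above both negative arrays and 3 had them below. Over all genes tested, 35.5% had them above and 14% below. The fibroblast collagen gene Col1a1 was also bright, at 12.57 and 9.60 in positive and 13.68 and 12.76 in negative cells.

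Sebaceous glands fill their cells with lipids such as wax esters and triglycerides and release them as sebum when the cell bursts. Fatty acids for these lipids are built from acetyl-CoA, lengthened by elongases and made unsaturated by desaturases, and then turned into fatty alcohols, waxes or glycerides. Sterols are built from the same acetyl-CoA through mevalonate and squalene, and proliferating cells use both products for membranes. The transcription factors SREBP-1 and SREBP-2 drive the fatty acid and sterol branches when sterol in the endoplasmic reticulum is low.

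Between Sox2-GFP-positive and negative cells, 6 of the 8 sebum genes had lower values on both positive arrays, the general fatty acid genes went both ways, and the 14 sterol genes differed little, with no gene past the test. On the log2 scale, positive minus negative, the median was -1.59 over the 8 sebum genes, 0.06 over the 6 storage genes, -0.25 over the 15 fatty acid genes and -0.18 over the 14 sterol genes, beside 0.14 over all genes. Rescaling on the poly-A control transcripts added to each RNA raises by 0.79 every difference. The fatty acid and sterol medians then became 0.54 and 0.61, while the sebum median stayed below 0 at -0.80. Relative to the median of all genes, the sebum median lay at -1.73 with either scaling, by construction of a shift common to all genes. These are bulk populations, in which fewer cells of a type and less RNA per cell cannot be told apart.

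No member passed the test. In limma, with Benjamini-Hochberg adjustment over all 18193 genes, 0 members and 0% of all genes were called at 0.05 in either direction, and member adjusted p ran from 0.157 to 0.994. Unadjusted, 3 members were higher and 9 lower at p under 0.05 in limma, where 9.75% and 5.22% of all genes were. With the replicate number as a block in limma, 6 members were lower and 0 higher, beside 0.868% and 0.0715% of all genes: Sdr16c6, Aadac, Far2, Elovl6, Elovl3 and Cidea. After quantile normalization the same block called 0 members (lowest adjusted p in limma 0.0680). Leaving out the dimmer genes removed Sdr16c6, Aadac, Elovl3 and Cidea, and the remaining pair, Far2 and Elovl6, had adjusted p of 0.0764 and 0.0749 in limma with the block. Rescaling on the poly-A controls called 16 members higher and 6 lower (12559 and 158 of all genes), and a trended prior called 2 lower (18 of all genes).

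Counted by order alone, with no test, 20 members (46.5%) had the groups apart with positive cells below, where 14% of all genes did. Another 7 (16.3%) had them apart with positive cells above, where 35.5% of all genes did, and the other 16 overlapped. After rescaling on the poly-A controls the split was 30 above and 8 below, beside 84.8% and 1.94% of all genes, and after quantile normalization 7 above and 24 below, beside 28.9% and 18.9%. Gaps of at least 1 log2 unit between the nearest arrays were found in 8 members below and 1 above, against 1.36% and 0.665% of all genes. The members were chosen with earlier results of these data known, so these shares only describe the list.

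**Figure D1:**
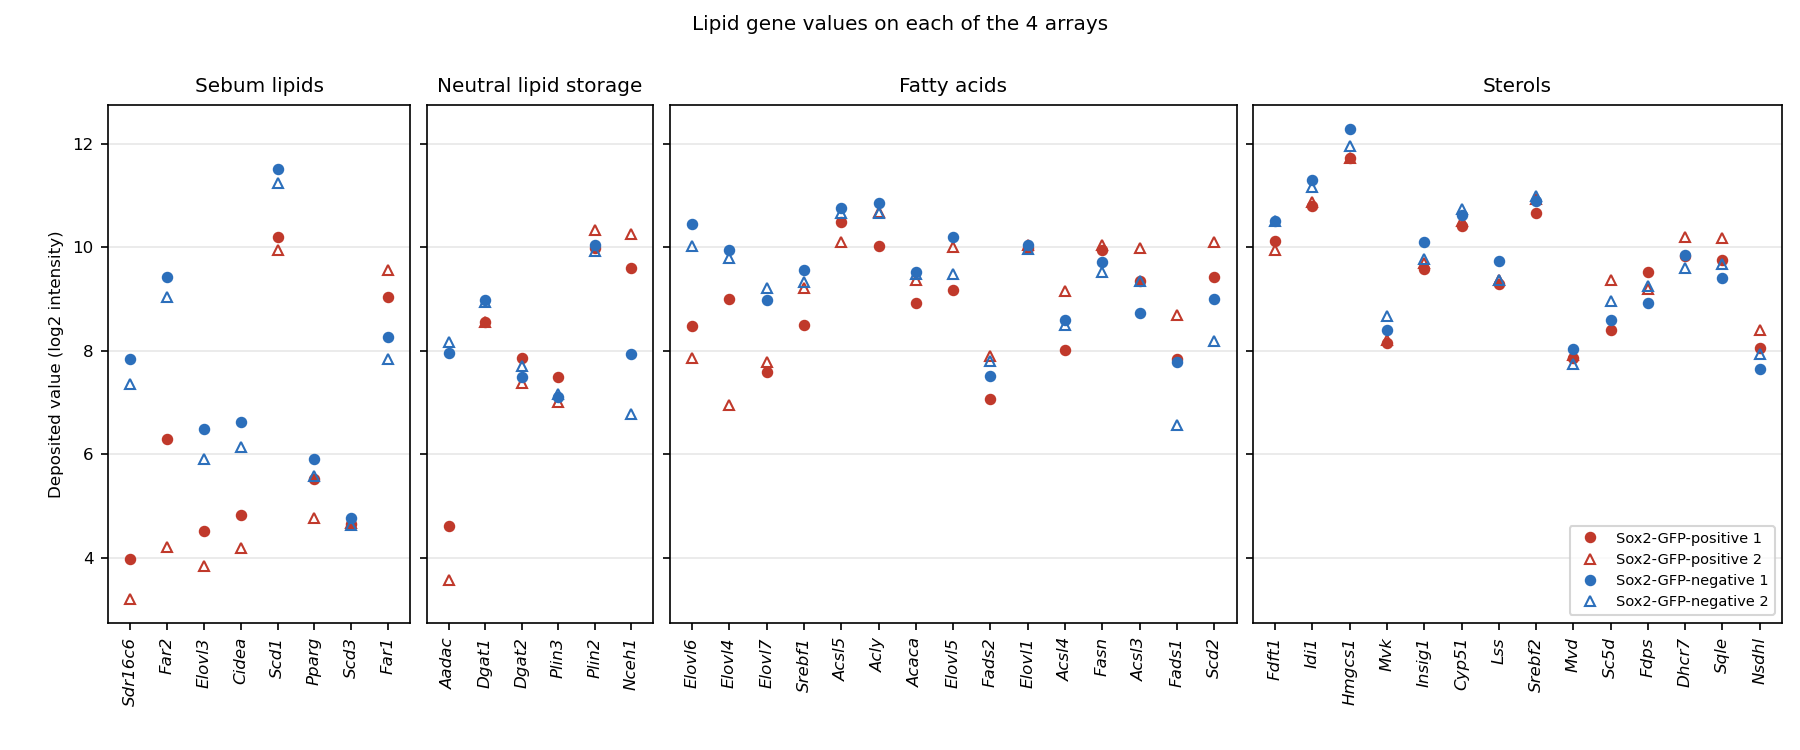
Deposited log2 intensity (vertical axis) of the 43 measured genes on each array, grouped by role and ordered by difference; red marks Sox2-GFP-positive and blue Sox2-GFP-negative arrays, circles replicate 1 and triangles replicate 2. In Sdr16c6 both positive arrays, at 3.98 and 3.20, lie below both negative arrays, at 7.85 and 7.36. For the sterol genes on the right, the differences between group means run from -0.49 to 0.43.

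Of all members, the sebum gene Sdr16c6 had the widest gap between the nearest arrays, at -3.38 on the log2 scale. The storage gene Aadac followed at -3.35 and the sebum gene Far2 at -2.75. Sdr16c6, a short-chain dehydrogenase/reductase, read 3.98 and 3.20 in Sox2-GFP-positive cells and 7.85 and 7.36 in Sox2-GFP-negative cells, with no overlap. On the log2 scale it lay -4.01 ± 0.34 (SE, n = 2 per group) from the negative cells, 16.1-fold lower (limma adjusted p = 0.157, and 0.0262 with the replicate block). Both positive values lay below the lower quartile of their arrays (4.25 and 4.19), so the transcript was near the floor and the fold is only a bound. Sdr16c5, its neighbour on the chromosome with 0 protein-coding genes between them, read 6.32 and 4.57 against 7.5 and 7.49 (limma adjusted p = 0.250).

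Far2, a reductase that makes the fatty alcohols of wax esters, had values of 6.30 and 4.20 in Sox2-GFP-positive cells beside 9.43 and 9.05 in Sox2-GFP-negative cells. The positive arrays lay far from each other and still both below the negative ones. The log2 difference of -3.99 ± 0.70 (SE, n = 2 per group) made it 15.9-fold lower (limma adjusted p = 0.184, and 0.0344 with the block). Far2 on positive replicate 2 lay near the lower quartile of that array (4.19), so its fold is only a bound. Its dimmer probe set also separated the groups, at 4.18 and 4.18 against 6.12 and 5.49. Far1, the other fatty acyl-CoA reductase, which also serves ether lipid synthesis, ran the opposite way: 9.04 and 9.56 in positive against 8.27 and 7.85 in negative cells, 2.36-fold higher (log2 difference 1.24 ± 0.28 SE; limma adjusted p = 0.214). All 5 Far1 probe sets had both positive arrays above both negative arrays, with log2 differences of 1.13 to 1.37.

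Elovl3, an elongase of very long saturated chains in sebaceous glands, had values of 4.53 and 3.84 against 6.49 and 5.91, 4.05-fold lower (limma adjusted p = 0.183, and 0.0389 with the block). Cidea, a protein of the lipid droplet surface, read 4.83 and 4.19 against 6.62 and 6.14, 3.66-fold lower (limma adjusted p = 0.183, and 0.0427 with the block). The groups did not overlap in either gene, and positive replicate 2 was the lowest array in both. On that array Elovl3 lay below the lower quartile (4.19) and Cidea near it, so both folds are only bounds.

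Scd1, the stearoyl-CoA desaturase of sebaceous glands, was bright on every array, at 10.20 and 9.95 against 11.52 and 11.25, with no overlap. It was 2.48-fold lower (log2 difference -1.31 ± 0.22 SE; limma adjusted p = 0.183, and 0.0856 with the block), and its other probe set gave -1.70. Scd3, another member of that desaturase family, lay near the lower quartile at 4.63 to 4.77 on all arrays. Pparg, the nuclear receptor that drives sebocyte and adipocyte differentiation, read 5.53 and 4.77 against 5.90 and 5.58, groups that lay 0.05 apart (limma adjusted p = 0.452). Of the 8 sebum genes, 6 thus had the positive arrays below, Far1 had them above and Scd3 overlapped. Over all genes, 14% had them below and 35.5% above.

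Promoter sequence is shown for the pair with the widest sebum separations, so that it can be set beside the sterol genes further on. The 250 bases before the annotated start (RefSeq, GRCm38.p6) lie at chr4:4077515-4077764 on the minus strand and at chr6:148047166-148047415 on the plus strand; capitals mark CCAAT boxes, GC boxes of letters GGGCGG, and matches to the sterol regulatory element core TCACCCCAC with at most 1 letter different, on either strand.
Sdr16c6: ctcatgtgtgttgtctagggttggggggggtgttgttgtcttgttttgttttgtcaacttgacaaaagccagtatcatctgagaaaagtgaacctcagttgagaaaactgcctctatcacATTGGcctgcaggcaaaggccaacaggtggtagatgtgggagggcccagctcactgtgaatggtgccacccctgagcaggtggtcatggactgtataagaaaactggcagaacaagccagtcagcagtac
Far2: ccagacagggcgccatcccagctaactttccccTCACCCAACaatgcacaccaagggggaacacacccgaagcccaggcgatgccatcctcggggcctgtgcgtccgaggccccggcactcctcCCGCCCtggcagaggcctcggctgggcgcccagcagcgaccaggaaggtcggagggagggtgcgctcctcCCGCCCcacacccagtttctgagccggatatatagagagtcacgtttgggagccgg
The Sdr16c6 window held a single CCAAT on the opposite strand and the Far2 window GGGCGG on the opposite strand and a match to the sterol element core.

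In neutral lipid storage, the genes that join or coat stored lipid stayed close in the probe sets used. The genes that cleave esters lay far apart in opposite directions. Aadac, an esterase of the endoplasmic reticulum, stood at 4.61 and 3.56 against 7.96 and 8.18, 15.8-fold lower (log2 difference -3.98 ± 0.39 SE, n = 2 per group, limma adjusted p = 0.157, and 0.0273 with the block). On positive replicate 2 Aadac lay below the lower quartile of the array (4.19), so its fold is only a bound. Nceh1, a neutral cholesterol ester hydrolase, read 9.61 and 10.26 against 7.94 and 6.78, 5.94-fold higher (log2 difference 2.57 ± 0.46 SE; limma adjusted p = 0.187, and 0.0817 with the block). Its other probe sets also had the groups apart above. Nceh1 was the only member with positive arrays at least 1 log2 unit above the negative ones.

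In the probe sets used, the triglyceride-forming and droplet-coating genes varied less. Dgat1, which completes triglyceride synthesis, read 8.55 and 8.56 against 8.99 and 8.95, a log2 difference of -0.41 ± 0.18 (SE, limma adjusted p = 0.378). Its dimmer probe set lay further apart below, at 6.31 and 7.06 against 8.10 and 7.76 (log2 difference -1.25). Dgat2, which catalyses the same step, had 7.87 and 7.37 against 7.50 and 7.72 and overlapped. The perilipins, which coat droplets, overlapped too. Plin2 read 9.99 and 10.35 against 10.05 and 9.93, and Plin3 read 7.49 and 7.01 against 7.11 and 7.18. The Nceh1 promoter is given as the one strongly separated member above the negative cells, at chr3:27182754-27183003 on the plus strand, marked as before.
Nceh1: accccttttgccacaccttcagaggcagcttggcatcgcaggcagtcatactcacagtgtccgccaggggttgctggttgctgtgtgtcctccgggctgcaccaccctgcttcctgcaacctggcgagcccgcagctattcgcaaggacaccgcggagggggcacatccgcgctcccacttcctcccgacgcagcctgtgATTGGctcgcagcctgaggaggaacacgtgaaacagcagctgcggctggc
It held a single CCAAT, on the opposite strand, and neither of the other motifs before the start.

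Among the 15 general fatty acid genes, 3 (20%) had the groups apart above, 6 (40%) below and 6 overlapped, beside 35.5% above and 14% below over all genes. Those of the first steps differed little: Acly, which supplies cytosolic acetyl-CoA, read 10.03 and 10.68 against 10.87 and 10.67. Acaca, acetyl-CoA carboxylase, read 8.92 and 9.37 against 9.52 and 9.49, and Fasn, the fatty acid synthase, 9.95 and 10.05 against 9.72 and 9.52. The Acaca arrays were just apart below (log2 difference -0.36 ± 0.23 SE) and the Fasn arrays just apart above (0.39 ± 0.19 SE), with limma adjusted p of 0.508 and 0.427.

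Elongases gave the lowest differences among the fatty acid genes. Elovl6, which lengthens palmitate to stearate, stood at 8.48 and 7.86 against 10.46 and 10.03, 4.20-fold lower (log2 difference -2.07 ± 0.30 SE, n = 2 per group; limma adjusted p = 0.180, and 0.0373 with the block). Elovl7, which acts on long-chain acyl-CoA, read 7.60 and 7.78 against 8.99 and 9.21, 2.66-fold lower (limma adjusted p = 0.180, and 0.0762 with the block), and all 6 of its probe sets had the groups apart below. Elovl4, the elongase of ultra-long chains for the skin barrier, read 9.01 and 6.95 against 9.95 and 9.80; the log2 difference of -1.89 ± 0.68 (SE; limma adjusted p = 0.313) rested largely on positive replicate 2. Without that array it was -0.86.

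The other elongases gave no such separation. Elovl1, the elongase of very long saturated chains found in most tissues, read 9.98 and 10.04 against 10.04 and 9.97. Elovl5, which lengthens polyunsaturated chains, read 9.17 and 10.01 against 10.20 and 9.49. Of the 6 measured elongases across roles, Elovl3, Elovl4, Elovl6 and Elovl7 thus had the groups apart below, while Elovl1 and Elovl5 overlapped. Over all genes, 14% stood apart below.

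Of the 3 desaturases of the general group, Scd2 and Fads1 had the groups apart above, as 35.5% of all genes did, and Fads2 overlapped. None passed the test with or without the block. Scd2, the isoform prominent in brain, stood at 9.43 and 10.10 against 9.01 and 8.19, 2.25-fold higher (log2 difference 1.17 ± 0.39 SE; limma adjusted p = 0.286), and each of its 3 probe sets had the groups apart above. Scd2 and Scd1 lie close together on the chromosome, with 1 protein-coding gene between them. Fads1, the delta-5 desaturase, read 7.84 and 8.69 against 7.78 and 6.56, groups only 0.06 apart (limma adjusted p = 0.396). Fads2, the delta-6 desaturase next to Fads1 on the chromosome, overlapped in its brightest probe set (7.07 and 7.90 against 7.51 and 7.80), whereas another probe set read 7.19 and 7.91 against 7.15 and 6.57. The Fads2 probe sets therefore disagreed in sign.

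Acyl-CoA synthetases, which activate fatty acids, and the regulator of the branch stayed near the negative cells. Acsl3 read 9.34 and 10.00 against 8.72 and 9.35, Acsl4 read 8.02 and 9.15 against 8.59 and 8.49, and Acsl5 read 10.49 and 10.10 against 10.76 and 10.67. Only Acsl5 had its groups apart, below and by 0.19 (limma adjusted p = 0.441). Srebf1, which encodes SREBP-1, read 8.51 and 9.22 against 9.57 and 9.34, apart below by 0.12 (log2 difference -0.59 ± 0.30 SE; limma adjusted p = 0.427).

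**Figure D2:**
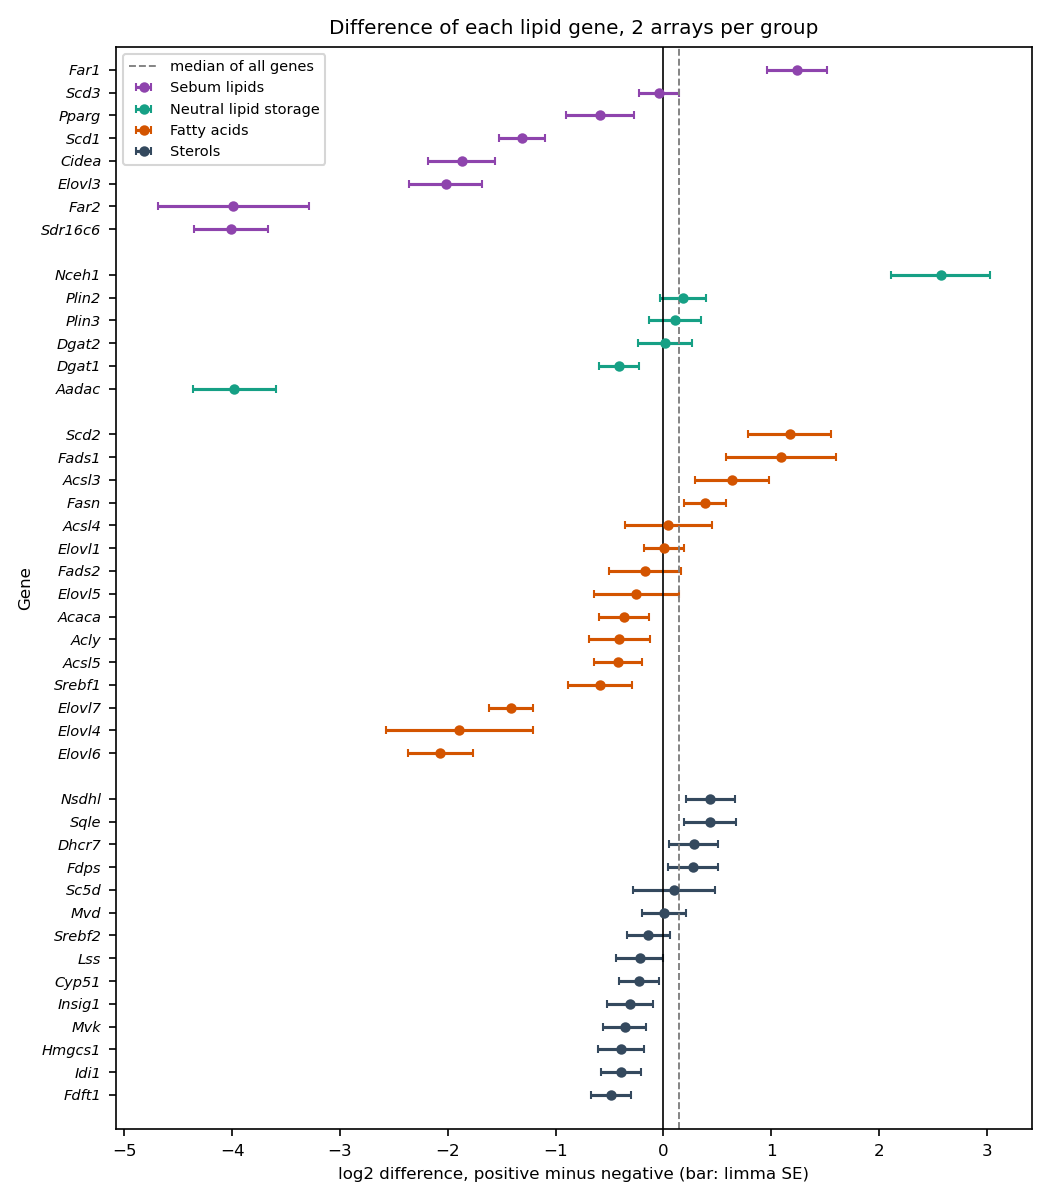
log2 difference, positive minus negative, of each measured gene (horizontal axis; points are means of 2 arrays per group, bars the limma standard error), coloured by role, with the median of all genes at 0.14 dashed. Sterol genes lie between -0.49 and 0.43, whereas sebum genes reach -4.01; rescaling on the poly-A controls would shift all points up by 0.79.

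Sterol genes were bright on all arrays and kept within a narrow band. Over the 14 genes the log2 differences ran from -0.49 to 0.43 with limma adjusted p of 0.337 to 0.994, and none passed with the block (lowest limma adjusted p = 0.384). In order along the pathway, Hmgcs1, which makes HMG-CoA, stood at 11.74 and 11.74 against 12.30 and 11.96. Mvk, mevalonate kinase, read 8.16 and 8.20 against 8.41 and 8.67. For Mvd, the decarboxylase that yields isopentenyl diphosphate, the arrays overlapped at 7.86 and 7.92 against 8.03 and 7.74.

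Idi1, the isomerase of isopentenyl diphosphate, read 10.80 and 10.88 against 11.30 and 11.17, while Fdps, which forms farnesyl diphosphate, overlapped at 9.53 and 9.20 against 8.93 and 9.26. At the entry to squalene, Fdft1, squalene synthase, had the lowest difference of the 14 genes, 10.12 and 9.94 against 10.52 and 10.51 (log2 difference -0.49 ± 0.19 SE, n = 2 per group; limma adjusted p = 0.337). The next enzyme, the squalene epoxidase Sqle, lay slightly above at 9.76 and 10.19 against 9.40 and 9.68. Fdft1 and Sqle thus stood on opposite sides of the negative cells. Pmvk, a mevalonate enzyme outside the 14 genes and named after its value was seen, had a log2 difference of -0.53 (limma adjusted p = 0.353).

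After squalene, Lss, which closes the ring to lanosterol, overlapped at 9.28 and 9.38 against 9.73 and 9.37. Cyp51, the lanosterol demethylase, read 10.41 and 10.52 against 10.63 and 10.75, and Nsdhl, which also removes methyl groups, read 8.06 and 8.40 against 7.66 and 7.93. These neighbours had the groups apart in opposite directions. Sc5d and Dhcr7, which finish cholesterol, overlapped, the first at 8.40 and 9.37 against 8.60 and 8.97 and the other at 9.83 and 10.20 against 9.86 and 9.61. Of the regulators, Insig1, which holds SREBP in the endoplasmic reticulum, read 9.58 and 9.69 against 10.11 and 9.78, and Srebf2, which encodes SREBP-2, overlapped at 10.67 and 10.93 against 10.90 and 10.98.

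By count, 6 of the 14 sterol genes (42.9%) had the groups apart below and 2 (14.3%), Sqle and Nsdhl, above, beside 14% and 35.5% of all genes. Sterol probe sets did not always keep a direction: a second Fdft1 probe set gave -0.80 and a dim one 0.59, and a dim Hmgcs1 probe set gave -2.23 beside -0.39 for the brightest. Over all members, 29 genes had several probe sets; of their 56 further probe sets 10 had the opposite sign to the one used, and 2 of those had the groups apart in that opposite direction.

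The promoters found for 11 of the 14 sterol genes share letters that the role grouping did not use. Matches were searched in windows from 250 bases before to 50 after each annotated start, on both strands, for CCAAT (the box bound by NF-Y), GGGCGG (the GC box bound by Sp1) and the sterol element core TCACCCCAC with at most 1 letter different. A promoter was found for 37 of the 47 listed genes, Awat1, Awat2, Soat1 and Acsl1 among them, and a gene with several starts counted once. None was found for the sebum genes Scd1, Elovl3 and Cidea or the sterol genes Fdft1, Fdps and Sqle. The storage genes Dgat1 and Dgat2 and the fatty acid genes Scd2 and Fads1 had none either. The counts below leave all of these out. CCAAT was present in 11 of 11 sterol genes, 5 of 7 sebum genes, 5 of 5 storage genes and 9 of 14 fatty acid genes, and in 37.4% of all 32851 windows (42.0% of array genes). GGGCGG was present in 11 of 11 sterol genes, 4 of 7 sebum genes, 3 of 5 storage genes and 9 of 14 fatty acid genes, and in 35.7% of all windows (57.3% of array genes). The sterol element core was matched in 3 of 11 sterol genes (Hmgcs1, Nsdhl and Srebf2) and 3 of 7 sebum genes (Awat1, Far2 and Scd3). It was matched in 0 of 5 storage genes and 4 of 14 fatty acid genes, beside 9.82% of all windows (12.25% of array genes). Of those sebum genes, Far2 had the groups apart below, Scd3 overlapped and Awat1 was not measured. All matches are letters in a window and not measured binding.

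The sterol promoters shown are the entry enzyme, an enzyme of the isoprenoid steps and the regulator, the first and last of which hold the sterol element core. The 250 bases before the start are given in GRCm38.p6 for Hmgcs1 (chr13:119690101-119690350 on the plus strand), Idi1 (chr13:8885356-8885605 on the plus strand) and Srebf2 (chr15:82147019-82147268 on the plus strand), capitals marking the same motifs.
Hmgcs1: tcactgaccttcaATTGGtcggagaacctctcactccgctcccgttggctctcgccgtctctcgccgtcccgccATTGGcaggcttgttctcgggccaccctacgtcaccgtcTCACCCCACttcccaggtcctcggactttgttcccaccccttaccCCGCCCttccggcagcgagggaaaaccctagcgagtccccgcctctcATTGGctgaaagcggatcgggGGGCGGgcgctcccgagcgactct
Idi1: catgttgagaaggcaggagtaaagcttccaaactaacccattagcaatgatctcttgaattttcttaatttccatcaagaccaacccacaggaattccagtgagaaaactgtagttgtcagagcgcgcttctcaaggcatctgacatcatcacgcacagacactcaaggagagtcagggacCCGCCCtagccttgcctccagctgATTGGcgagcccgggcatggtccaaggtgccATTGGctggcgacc
Srebf2: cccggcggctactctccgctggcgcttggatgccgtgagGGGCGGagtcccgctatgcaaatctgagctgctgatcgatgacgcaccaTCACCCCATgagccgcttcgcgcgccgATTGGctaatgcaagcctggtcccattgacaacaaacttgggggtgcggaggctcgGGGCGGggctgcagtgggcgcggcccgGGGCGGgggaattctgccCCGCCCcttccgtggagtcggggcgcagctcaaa
Counted from the start, Hmgcs1 held the exact core at -137 to -129, between CCAAT matches on the opposite strand. Srebf2 held a match with 1 letter different at -162 to -154 and a CCAAT on the opposite strand at -135 to -131. Idi1 held CCAAT on the opposite strand at -45 to -41 and -14 to -10. All 3 genes had log2 differences between -0.39 and -0.14 in these arrays.

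**Figure D3:**
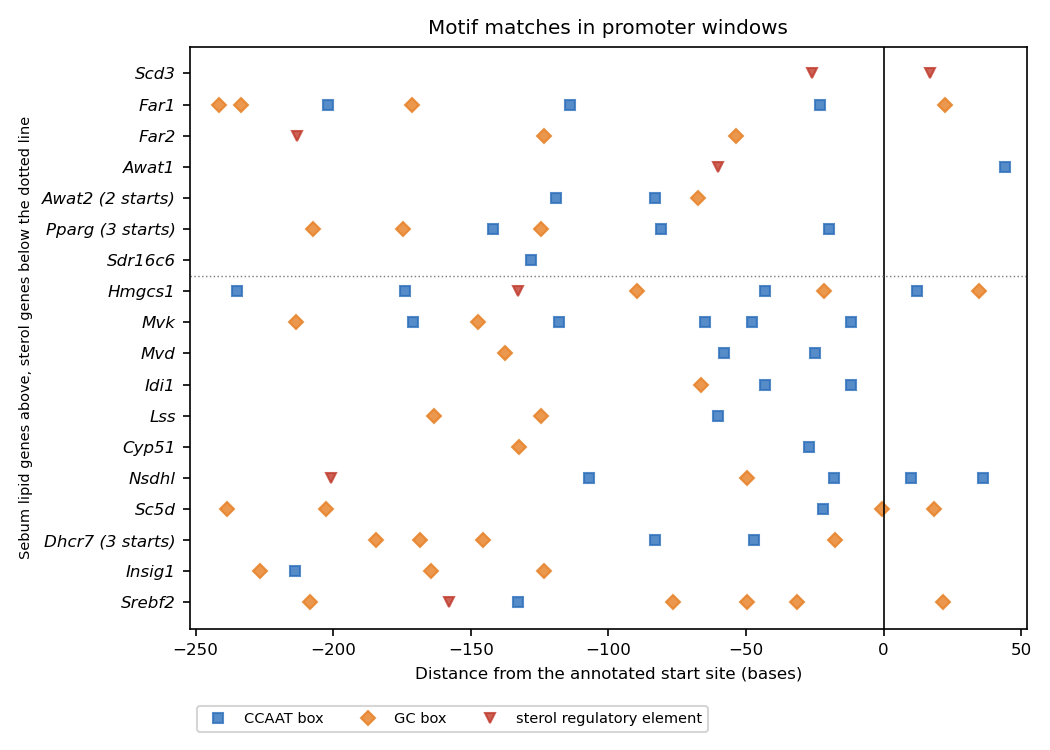
Positions of motif matches (horizontal axis, bases from the annotated start; each mark is a match on either strand) in the promoter windows of sebum lipid genes, above the dotted line, and sterol genes, below it; genes with several annotated starts are drawn on 1 line. Each of the 11 sterol genes with a promoter found has at least 1 CCAAT and 1 GGGCGG match.

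The wider pathways were read from lists of genes that were no members, also chosen with earlier results of these data known. For these lists the shares over all genes are again 14% apart below, 35.5% above and 0.868% called lower with the block. Of 20 further sebaceous gland genes 17 were measured, with a median log2 difference of -0.47, 8 apart below (47.1%), 1 above (5.88%), and 2 called lower with the block. Those were Krt79, a keratin of the sebaceous duct and upper follicle (7.69 and 6.11 against 11.75 and 11.78; limma adjusted p = 0.0270 with the block), and the ceramide synthase gene Cers4 (5.64 and 4.98 against 9.01 and 8.25; limma adjusted p = 0.0262 with the block). For other fatty acid and glyceride genes, 36 of 38 were measured and the median was 0.02, with 11 apart above (30.6%), 10 below (27.8%) and 0 called with or without the block. The widest gaps there were in Me1, the malic enzyme that supplies NADPH (7.07 and 7.14 against 8.55 and 8.08), in Fads3 (8.63 and 9.95 against 7.88 and 7.71) and in Acss2, which makes acetyl-CoA from acetate (5.99 and 6.68 against 8.07 and 7.39).

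For other sterol genes, 21 of 27 were measured, with a median of -0.22, 3 apart above (14.3%), 6 below (28.6%) and 0 called with or without the block. The widest gaps were in Abcg1, a sterol exporter (4.83 and 4.91 against 6.75 and 5.83), Mbtps2, the site-2 protease that releases SREBP (7.17 and 7.01 against 6.18 and 5.89), and Cyp27a1, a sterol hydroxylase (5.55 and 4.62 against 6.20 and 6.55). Of 17 genes for barrier lipids of the epidermis 16 were measured, with a median of -0.22, 8 apart below (50%) and 2 above (12.5%). Lipm, a lipase of the cornifying layers, was called with the block (5.16 and 5.58 against 7.92 and 8.23; limma adjusted p = 0.0273). Sptlc3, a subunit of the enzyme that starts ceramide synthesis, read 4.61 and 4.19 against 6.32 and 5.69, and Abca12, a lipid transporter of keratinocytes, 4.94 and 5.35 against 6.29 and 8.12.

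Among marker lists of other cells, the suprabasal keratinocyte and fibroblast lists separated the groups in the same direction as the sebum genes. The means of the adipocyte, endothelial, leukocyte and basal lists overlapped between groups. Over all genes, 14% stood apart below, 35.5% above, and 0.868% were called lower with the block. As the mean of each gene's value minus its 4-array mean, the sebum genes stood at -0.50 and -1.08 in positive and at 0.98 and 0.59 in negative cells. Suprabasal keratinocyte markers (10 of 11 measured, 6 apart below, 2 above, 3 called lower with the block) stood at -0.46 and -1.16 against 0.71 and 0.91. The brightest of them, Krtdap, read 13.27 to 13.34 on all arrays, while the keratin gene Krt1 read 11.43 and 9.92 against 12.57 and 12.66. Fibroblast markers (10 of 10 measured, 9 apart below, 5 called lower with the block) stood at -0.14 and -2.11 against 1.96 and 0.29, with the collagen gene Col1a1 at 12.57 and 9.60 against 13.68 and 12.76. Pdgfra, which encodes the CD140a gated out in the sort, read 5.93 and 4.85 against 7.83 and 5.96. Taken between arrays of the same replicate number, the median difference was -1.55 and -1.63 over the sebum genes, -2.11 and -2.93 over the fibroblast markers, and -1.08 and -2.08 over the suprabasal markers. The part of these markers in the sebum differences was not tested.

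Adipocytes share many lipid genes with sebocytes, and their markers did not move as a list (8 of 10 measured, median 0.14, 3 apart above and 2 below). For this and the lists below, the shares over all genes are 35.5% apart above and 14% below. Adipoq, the adiponectin gene, and Lep, the leptin gene, were near the floor at 3.22 to 3.51 and 3.68 to 3.96 on all arrays. Fabp4, a fatty acid binding protein, overlapped, its positive replicate 2 at 9.56 lying between the negative arrays at 10.53 and 8.07. The pair apart below were the lipase gene Lpl (5.97 and 5.17 against 8.33 and 7.60) and the fatty acid receptor gene Cd36 (4.70 and 4.13 against 7.09 and 6.46), with limma adjusted p of 0.0308 for each with the block. Endothelial markers (8 of 8 measured, 1 apart below, Emcn, called lower with the block at a limma adjusted p of 0.0390) stood at -0.02 and -0.79 against 1.13 and -0.33. Leukocyte markers (8 of 8 measured, 1 apart below and 1 above) stood at 0.03 and -0.63 against 0.81 and -0.21. In both lists the groups overlapped, while each positive array stood below the negative array of its replicate number. Basal keratinocyte and epithelial markers (8 of 8 measured) had a median of 0.00, with 4 apart above and 3 below.

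**Figure D4:**
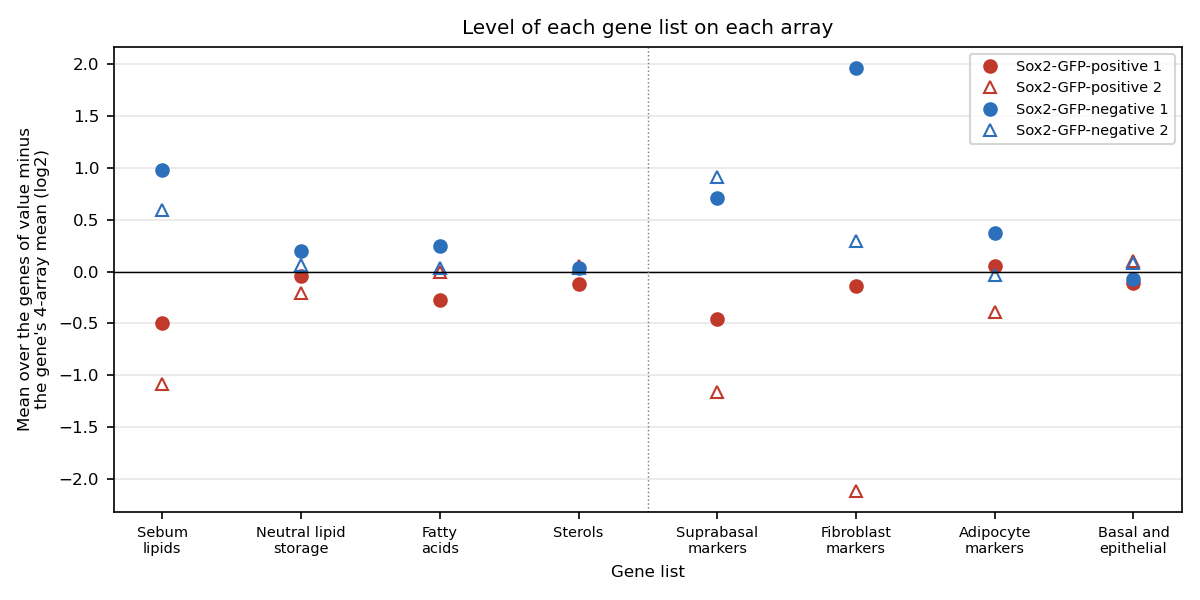
Mean over the genes of a list of each value minus that gene's 4-array mean (vertical axis, log2), on each array, for the 4 roles (left of the dotted line) and for marker lists of other cells; red marks positive and blue negative arrays, circles replicate 1 and triangles replicate 2. Positive arrays lie below negative arrays for the sebum genes and for the suprabasal and fibroblast markers, and the sterol genes stay between -0.12 and 0.05. The storage means also lie below, although 4 of the 6 storage genes had differences above 0 and 2 below. Those ran from -3.98 (Aadac) to 2.57 (Nceh1), with a median of 0.06. The fatty acid means lie only just below, the nearest arrays at -0.007 (positive) and 0.038 (negative).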

How the data were processed

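The authors deposited log2 values for 45101 probe sets on 4 whole-genome mouse Affymetrix arrays, 1 per sample; the log2 scale was read from the values, and for background correction, normalization and summary the method is not given in the sources used here. R 2.14.0 is named in the submitters' processing notes. Per the labels' protocols, 100 ng of RNA per sample was spiked with bacterial transcripts, amplified and biotin-labelled. The table holds no detection calls.

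The 64 control probe sets were left out; 34945 probe sets had 1 symbol, 932 several and 9160 none. Each of 18193 genes was represented by its brightest probe set. The test was limma 3.58.1 in R 4.3.3, group as the only term, adjusted p under 0.05, with 2 residual and 2.92 prior degrees of freedom; it was tested on simulated data. Replicate numbers are shared by the groups, and the series text, which names 2 tumours of 2 mice, was read as pairing them, which the labels do not state. Deviations of same-numbered arrays correlated with r = 0.16 over all genes and -0.01 over the members, so the pairing is undecided. The blocked fit leaves 1 residual degree of freedom.

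The members and all lists were chosen with earlier results of these data known. Named genes were all members, block-called genes and the 3 widest gaps of each related list, and at most 3 of the brightest markers of each cell type; Adipoq, Lep, Lpl, Cd36 (both block-called), Emcn, Pdgfra, Pmvk and Epcam were added after their values were seen. Of 157 further listed genes, 142 were measured. Alternatives were other scalings, probe set rules, a filter, priors, the block and leaving out each array.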

Additional observations from a re-analysis of the deposited data

How the results depend on the processing

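The directions of Sdr16c6, Aadac, Elovl3, Cidea, Far2, Scd1, Elovl6, Elovl7, Elovl4, Far1, Nceh1 and Scd2 held under each scaling, probe set rule and left-out array that was run, while calls did not. Priors and the replicate block leave every difference unchanged by construction, so they could not test direction. The named genes had the widest differences among the members. Equal medians and the poly-A rescaling add the same shift to every gene, which was too small to reverse them. The filter on dimmer genes removed Sdr16c6, Aadac, Elovl3 and Cidea, which were therefore not tested under it. Over all genes the replicate block called 13 higher and 158 lower, with members at 0 higher and 6 lower. A trended prior called 1 higher and 18 lower over all genes and 2 members lower (Sdr16c6 and Aadac). The replicate block with a trended prior called 654 higher and 782 lower, with 3 members higher and 9 lower; its prior had 34 degrees of freedom beside 1 residual. Quantile normalization (also with the block), dropping the dimmer genes (also with the block), equal medians, averaged probe sets and leaving out any 1 array called 0 genes; with equal medians the lowest member adjusted p in limma was 0.0625.

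Rescaling on 24 probe sets of poly-A control transcripts called 12559 genes higher and 158 lower, with 16 members higher and 6 lower, and set 30 members apart above and 8 below. The medians by role became -0.80 (sebum), 0.85 (storage), 0.54 (fatty acid) and 0.61 (sterol). Members that changed sign there read 0.20 (Srebf1), 0.20 (Pparg), 0.31 (Fdft1), 0.37 (Acsl5), 0.38 (Dgat1), 0.38 (Acly), 0.40 (Idi1), 0.40 (Hmgcs1), 0.43 (Acaca), 0.43 (Mvk), 0.48 (Insig1), 0.54 (Elovl5), 0.56 (Cyp51), 0.57 (Lss), 0.62 (Fads2), 0.65 (Srebf2) and 0.75 (Scd3), by construction of a shift of 0.79.

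The sebum median was -1.68 after quantile normalization, -1.69 with the mean of probe sets and -1.81 to -1.37 over the left-out arrays. Without the dimmer genes 3 of the 8 sebum genes remained, and -1.31 is then the value of Scd1 alone. The fatty acid median, -0.25 over all arrays, ran from -0.59 to 0.037 over the left-out arrays, 0.037 without positive replicate 1. Members apart above numbered 9 to 13 over the left-out arrays (13 without positive replicate 1, 12 without negative replicate 1) and those below 21 to 27; with fewer arrays more genes stand apart by construction. Small differences changed sign elsewhere. With equal medians Dgat2 read -0.031, Elovl1 -0.036 and Mvd -0.038. With quantile normalization, with and without the replicate block, Sc5d read -0.021, Acsl4 -0.070, Dgat2 -0.10, Elovl1 -0.10 and Mvd -0.11. With the mean of probe sets Dgat2 read -0.0083, Sc5d -0.18 and Fads2 0.22. Over the left-out arrays the ranges were -0.11 to 0.030 (Scd3), -0.23 to 0.26 (Dgat2), -0.13 to 0.35 (Plin3), -0.032 to 0.045 (Elovl1), -0.67 to 0.17 (Elovl5), -0.59 to 0.25 (Fads2), -0.52 to 0.61 (Acsl4), -0.14 to 0.15 (Mvd) and -0.38 to 0.58 (Sc5d). The cause of these changes was not tested. Dim values have no detection calls, so folds against positive arrays near the floor are bounds.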
